A study of Arabidopsis thaliana with 15 samples.

Results

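Some stretches of the Arabidopsis thaliana genome carry methyl groups on most of their CHH cytosines in the seed, where H stands for A, C or T. They are described here as windows of 300 bp laid end to end from base 1 of each chromosome. A window was a member when its CHH cytosines held at least 100 calls in the 3 libraries of cold-treated seeds together and at least 50% of those calls were methylated. The members were thus selected on the CHH values of 48 h S, and 6009 of the 389094 windows with enough calls (1.54%) met the rule, out of 391766 windows with any call. The CHH levels of 48 h S are therefore given as a description, and comparisons rest on the other time points and on the CG and CHG contexts.

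All seeds were wild type Col-0 from 1 batch of plants, and no mutant or transgene entered these comparisons. The 0 h samples were dry seeds stored dry and dark for 14 days, and those of 48 h S had then lain cold and dark (4 °C) over 48 h, a step called stratification (S). Samples of the later points, which were 6 h SL, then 24 h SL, and last 48 h SL, had in addition spent 6, 24 or 48 h in continuous light at 22 °C (L). The tissue was labelled seed at 0 h, germinating seed at 48 h S, 6 h SL and 24 h SL, and seedling at 48 h SL, so that time and tissue cannot be told apart at the end of the series. DNA came from whole seeds or seedlings, with 3 libraries per time point over 5 time points, and 600 ng of DNA per library. The level of a window is an average over the cells of embryo and endosperm or of the seedling, and a lower level in every cell cannot be told apart from a larger share of cells without the mark.

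In plants, methylation in the CG context is copied at replication by the methyltransferase MET1, and CHG methylation is kept by CMT3 together with methylated histone H3. CHH methylation has no methylated partner on the other strand to be copied from and must be set anew, by DRM2 guided by small RNAs (RNA-directed DNA methylation) and by CMT2, which favours the trinucleotides CAA and CTA. CHH methylation is known to build up on transposons while seeds mature and to be lost again after germination. Levels in most of the genome are low, since the bodies of genes carry almost no CHH methylation.

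5 windows show what such a stretch looks like in sequence, each the first of its class by the naming rule given with the processing. They are printed on the plus strand of the RefSeq TAIR10.1 assembly. Capitals mark CHH cytosines at 80% or more in the 3 libraries of 0 h together, with at least 10 calls, so that a capital C is methylated on the plus strand and a capital G stands for a methylated cytosine on the minus strand.
chr4:8564401-8564700, largest CHH fall: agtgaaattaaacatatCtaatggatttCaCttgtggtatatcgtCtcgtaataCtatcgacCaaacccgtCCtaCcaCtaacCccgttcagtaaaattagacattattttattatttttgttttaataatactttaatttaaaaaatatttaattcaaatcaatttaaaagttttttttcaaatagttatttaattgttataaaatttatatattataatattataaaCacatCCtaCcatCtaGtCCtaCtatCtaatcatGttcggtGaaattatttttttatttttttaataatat
chr4:9320401-9320700, highest CHH level at 0 h: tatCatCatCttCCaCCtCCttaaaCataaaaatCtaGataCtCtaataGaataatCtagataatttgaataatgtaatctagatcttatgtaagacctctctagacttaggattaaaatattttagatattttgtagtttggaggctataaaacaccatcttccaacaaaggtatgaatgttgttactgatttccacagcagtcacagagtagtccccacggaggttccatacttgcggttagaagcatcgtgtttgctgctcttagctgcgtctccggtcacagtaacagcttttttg
chr5:5701201-5701500, lowest CG level at 0 h among members with at least 20 CG calls in every library: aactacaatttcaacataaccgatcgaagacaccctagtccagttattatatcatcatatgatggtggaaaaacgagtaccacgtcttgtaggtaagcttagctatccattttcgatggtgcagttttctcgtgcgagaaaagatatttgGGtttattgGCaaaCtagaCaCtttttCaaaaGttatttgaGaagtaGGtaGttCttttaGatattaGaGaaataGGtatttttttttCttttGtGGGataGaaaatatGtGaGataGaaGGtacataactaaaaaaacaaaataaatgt
chr1:7722301-7722600, largest strand difference at 0 h: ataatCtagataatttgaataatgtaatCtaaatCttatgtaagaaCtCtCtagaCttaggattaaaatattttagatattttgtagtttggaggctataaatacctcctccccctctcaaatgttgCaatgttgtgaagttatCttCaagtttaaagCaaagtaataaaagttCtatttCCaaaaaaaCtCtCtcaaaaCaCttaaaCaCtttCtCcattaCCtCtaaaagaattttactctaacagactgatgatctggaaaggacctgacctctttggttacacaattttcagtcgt
chr4:2762701-2763000, largest CHG fall: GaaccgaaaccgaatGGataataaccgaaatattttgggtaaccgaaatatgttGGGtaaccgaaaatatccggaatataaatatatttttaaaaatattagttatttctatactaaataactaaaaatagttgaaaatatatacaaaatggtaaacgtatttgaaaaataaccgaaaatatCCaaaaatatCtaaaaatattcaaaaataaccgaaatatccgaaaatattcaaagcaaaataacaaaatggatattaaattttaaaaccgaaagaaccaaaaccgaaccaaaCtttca

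In the first of them, 23 of the 36 CHH cytosines with 10 calls reached 80% at 0 h, 20 on the plus and 3 on the minus strand. In the second, all 16 that could be read reached it, but they lay between bases 4 and 57 of the window, and the rest of the window held too few calls to be read. In the third, 31 of 78 reached it, all of them between bases 151 and 272. The fourth had 26 such cytosines of 43, every one on the plus strand. Its plus strand held 158 to 335 CHH calls per 0 h library and its minus strand 45 to 65. How many of the 43 lay on each strand was not counted. The fifth had 10 of 37, spread from base 1 to base 295. None of the CHH cytosines of these 5 windows with at least 10 calls was at 80% or more at 48 h SL. The second and the fourth windows, on chromosomes 4 and 1, share an exact run of 56 bases (bases 98 to 153 and 47 to 102), and that run occurs 14 times in the 5 chromosomes.

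The whole table held 97238997 to 428839380 calls per library, or 2.27 to 10.01 calls per cytosine. In the members, CHH cytosines had 2.34 to 12.5 calls each, and a member had a median of 153 to 850 CHH calls per library. Replicate 1 of 24 h SL was the shallowest, with 274 members under 20 CHH calls against 1 to 31 in the other 14 libraries. The level summed over all members carried a counting error of 0.0423 to 0.102 points in CHH (on either side, by the Wilson 95% interval), whereas a single window at 60% with 20 calls carried 19.7 points and with 153 calls 7.67 points. Such intervals hold the counting error alone and not the spread between samples. They also treat every call as independent, although calls of the same read are not, so the error can be larger. Replicate 1 of 48 h SL stood apart from the other libraries in its coverage, since members held 1.55 times as many calls per CHH cytosine as the genome there, against 1.02 to 1.37 times in the other 14. In windows with almost no CG and CHG methylation, the CHH level was 0.647% and 0.816% in replicates 1 and 2 of 48 h SL and 0.256% to 0.457% in the other 13 libraries. Levels were not corrected for it, and its removal is given with the alternatives.

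The CHH level of the members stayed near its seed value through stratification and the first hours of light, then fell. The libraries of 0 h stood at 60.1, 59.9 and 61.0% (60.3% ± 0.582, SD, n = 3), those of 48 h S at 59.7, 60.4 and 60.4%, and those of 6 h SL at 62.3, 60.8 and 61.3%. At 24 h SL they stood at 52.0, 50.3 and 52.7% (51.7% ± 1.22, SD, n = 3), below every earlier library. At 48 h SL they stood at 35.4, 32.6 and 32.9% (33.7% ± 1.54, SD, n = 3). Between 0 h and 48 h SL the mean moved by -26.7 points, with 55.8% of the 0 h level left. Without replicate 1 of 48 h SL, which was the highest of the 3, it was -27.6 points with 54.3% left.

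CHG methylation fell much less and CG methylation hardly moved. CHG stood at 70.7 to 71.5% at 0 h, between 65.6 and 67.5% a day into light (24 h SL) and between 61.0 and 63.8% at 48 h SL, so that the groups did not overlap and the mean change to 48 h SL was -9.10 points (87.2% left). CG stood at 84.7 to 85.2% at 0 h and at 83.8 to 85.9% at 48 h SL. The groups overlapped, and the mean change of -0.313 points was smaller than the SD of 1.11 points among the libraries of 48 h SL.

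Windows of lower CHH level kept a larger share of it. Windows of 20 to under 50% at 48 h S (46990) had 29.1% ± 0.418 in dry seeds and 18.5% ± 1.28 in seedlings (SD, n = 3), 63.8% of the start. Those of 5 to under 20% (34318) went from 14.9% ± 0.205 to 10.4% ± 0.756, 69.9% of the start. In CHG, 92.5% and 94.2% were left in these bands against 87.2% in the members. These differences between bands are descriptions, since the bands were set by the rule.

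**Figure D1:**
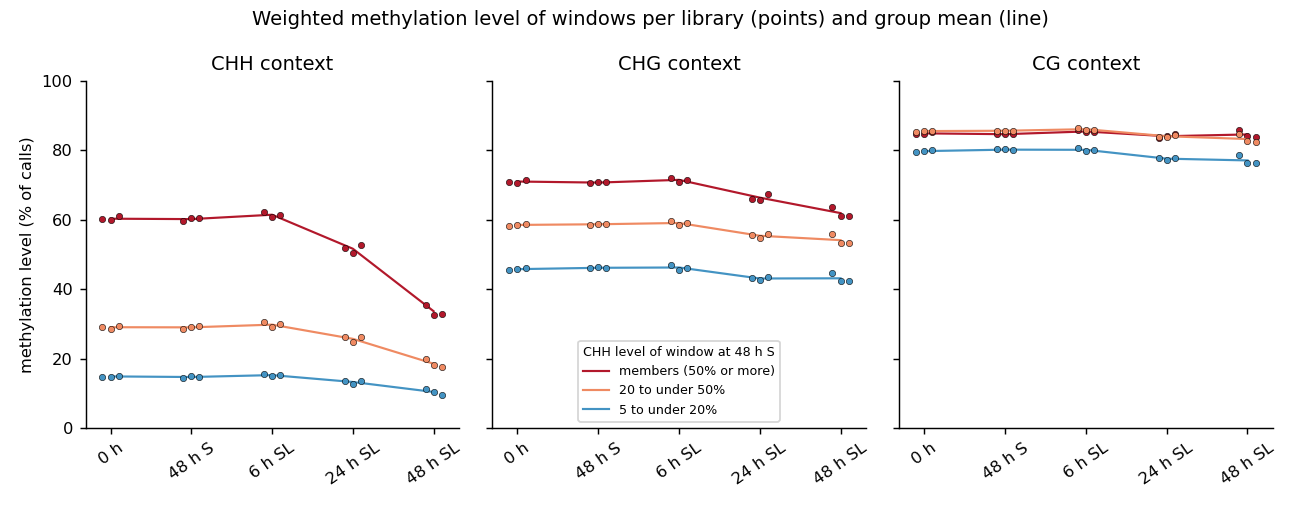
Weighted methylation level (methylated calls as a percentage of all calls, y axis) at the 5 time points (x axis) in the CHH, CHG and CG contexts, for members and for windows of 20 to under 50% and 5 to under 20% CHH at 48 h S. Points are the 3 libraries and lines join the group means. Member CHH falls from a mean of 60.3% to one of 33.7% in seedlings while CG stays between 83.5% and 85.9% in every library.

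Most members met the rule in dry seeds as well. Applied to the libraries of another time point, it was met by 6180 windows at 0 h, of which 5403 were members (89.9% of the members and 87.4% of those windows). At 6 h SL it was met by 6706 windows, which held 92.7% of the members. At 24 h SL 3265 windows met it, with 52.9% of the members, and at 48 h SL 136 windows, 133 of them members (2.21%). The 3 members closest above the 50% limit, all at 50% at 48 h S, stood at 50.1, 49.5 and 48.0% at 0 h. The 3 windows closest below it, at 49.98% each, stood at 46.5, 57.0 and 51.0%.

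Single windows were spread widely around these means. At 0 h the median member was at 59.1% CHH, the lowest at 17.0% and the highest at 96.9%, with quartiles of 53.9 and 66.3%. The median of 48 h SL was 33.7% and the quartiles were 30.1 and 38.1%. A level of at least 60% was reached by 2785 members at 0 h and by 7 at 48 h SL. In CG, 5285 of the 5656 members with 20 calls were at 60% or more at 0 h and 54 were under 20%, so that a few members carried CHH methylation with almost none in CG. In CHG, 66 of 5599 members were under 20%.

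**Figure D2:**
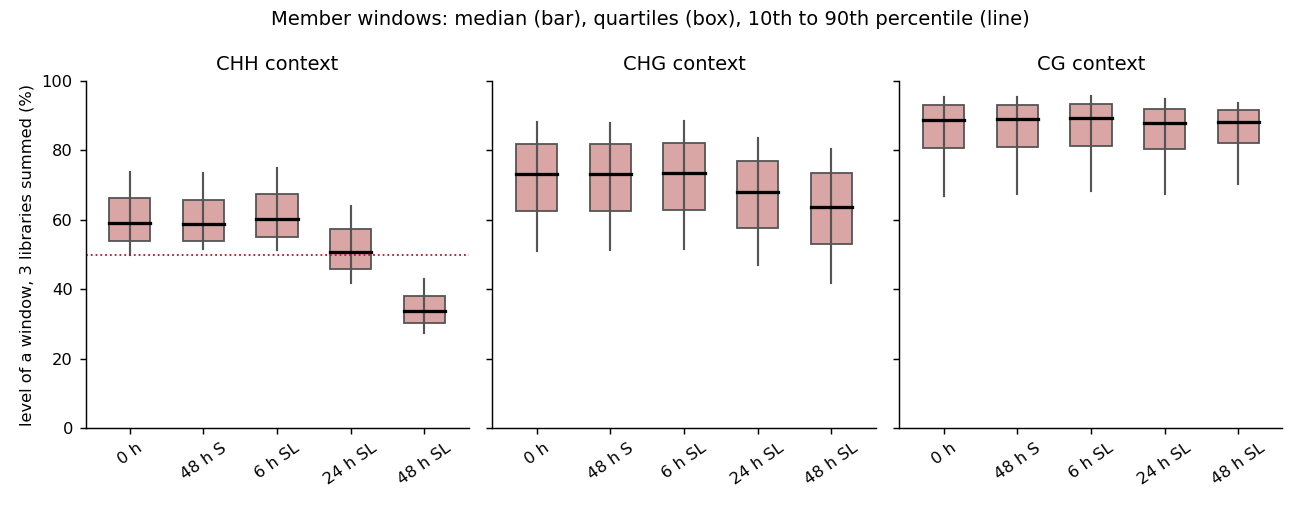
Distribution of the levels of single member windows (3 libraries summed, y axis in %) at each time point for CHH, CHG and CG. Bars are medians, boxes quartiles and lines run from the 10th to the 90th percentile, and the dotted line is the 50% limit of the rule. The CHH median is 59.1% in dry seeds, 50.8% at 24 h SL and lowest, 33.7%, in seedlings.

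Each window was then tested for itself, over all windows with at least 20 calls in every library but those of 48 h S. A quasi-binomial model was fitted to the methylated and unmethylated calls, and a window was called at an adjusted p under 0.05 and a difference of at least 20 points. CHH could be tested in 5721 of the 6009 members. Between 0 h and 48 h SL, 4840 of them (84.6%) were called lower and 0 higher, whereas 1.95% of all 384799 tested windows were called lower. All 5721 had a negative difference, with a median of -26.0 points, quartiles of -30.2 and -22.0, and extremes of -46.2 and -3.03, while the median of all tested windows was 0.147 points. In 5599 members (97.9%) every library of 48 h SL lay below every library of 0 h, which held for 14.9% of all tested windows. Of the windows of 20 to under 50%, 5.96% were called. A window under 20% at 0 h cannot fall by 20 points, and 301777 windows were under 5% CHH at 48 h S. The shares of all windows called lower, here and below, thus depend in part on their starting level.

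Much of the loss fell after 24 h SL. Between the last pair of time points, 24 h SL and 48 h SL, 1747 members (30.5%) were called lower, against 0.558% of all tested windows, with a median difference of -17.4 points. From 0 h to 24 h SL the median difference was -8.68 points and 5412 members had a negative one, but none passed the test. The quasi-binomial model called 0 of them, with 0.0% of all windows called, while limma on transformed levels called 83. In 2778 members the unadjusted p of the quasi-binomial model was under 0.05, against 3.52% of all tested windows. In 2325 members (40.6%) the libraries of 24 h SL all lay below those of 0 h, against 6.53% of all tested windows. Between 6 h SL and 24 h SL 16 members were called lower (0.00494% of all tested windows were), and leaving out any 1 library of the 2 groups left between 0 and 7. This count depends on the fit, since limma called 154, the model with all 15 libraries 42 and the one with a replicate block 0.

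The small rise at 6 h SL was not called in any member by the quasi-binomial model. The median difference from 0 h was 1.11 points. The quasi-binomial model called 0 members, as it called 0.0% of all windows, and limma called 1. In 382 members the unadjusted p of the quasi-binomial model was under 0.05, against 1.47% of all tested windows. All libraries of 6 h SL lay above those of 0 h in 464 members (8.11%, against 4.9% of all tested windows). They lay below them in 185 members (3.23%, against 3.57%).

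In CHG, 2608 members had enough calls. Between 0 h and 48 h SL 126 of them (4.83%) were called lower, against 0.0914% of all 298662 tested windows, and the median difference was -7.72 points. All libraries were lower in 1137 (43.6%), against 3.77% of all tested windows. The count of 126 called members depends on the test, since limma called 41. From 0 h to 24 h SL the quasi-binomial model called 0 members and 0.000335% of all windows lower, and limma called 1 member. In 386 members the unadjusted p of the quasi-binomial model was under 0.05, against 2.25% of all tested windows.

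In CG, 3145 members were tested and 1 was called between 0 h and 48 h SL, as higher. Of all 262768 tested windows, 0.00419% were called higher and 0.0019% lower. Of the members, 534 had an unadjusted p under 0.05, against 8.14% of all tested windows, and limma called 0. The median difference was -0.0613 points. Members with every library lower (327, against 6.17% of all tested windows) and with every library higher (288, against 3.34%) were about as many. From 0 h to 24 h SL the quasi-binomial model called 0, with 0.0% of all windows called lower, and limma called 0. In 225 members the unadjusted p of the quasi-binomial model was under 0.05, against 3.27% of all tested windows.

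Among the tested members, the largest called fall was at chr4:8564401-8564700, whose sequence is shown above. It lies 734 bp upstream of AT4G14980, annotated as a protein with a cysteine and histidine-rich C1 domain. Its CHH level was 81.8, 70.95 and 82.7% at 0 h, from 191 to 418 calls, and 39.8, 17.7 and 30.9% at 48 h SL, from 192 to 473 calls. The groups did not overlap, and the fitted difference, in which libraries weigh by their calls, was -46.2 points (adjusted p = 2.87e-07). The libraries of 24 h SL stood at 66.7, 64.1 and 71.9%, with 21 calls in the first.

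The next was at chr1:587701-588000, 3 bp upstream of AT1G02700, a GATA transcription factor-like protein. CHH there was 88.7, 85.8 and 89.5% at 0 h and 42.5, 46.4 and 36.6% at 48 h SL, a difference of -46.2 points (adjusted p = 1.64e-09). The third, chr5:15231001-15231300, lies 758 bp downstream of AT5G38180, which encodes a protein of the lipid-transfer and 2S albumin superfamily. It went from 90.1% ± 1.99 to 43.5% ± 1.37 in CHH (SD, n = 3, adjusted p = 1.03e-08), and CHG fell there as well, from 90.3% ± 2.06 to 68.9% ± 2.98 (adjusted p = 6.84e-08), while CG was at 93.2% and 93.9%. The others were chr3:15078301-15078600, 387 bp upstream of the non-coding RNA gene AT3G06495 and 1044 bp upstream of LCR33, a small cysteine-rich protein gene, with -46.0 points (adjusted p = 1.86e-08), and chr5:4539601-4539900, 278 bp downstream of AT5G14060 (CARAB-AK-LYS), which encodes an aspartate kinase, with -45.6 points (adjusted p = 3.94e-06). The last holds no CG site, and its CHH level was 73.8% ± 3.23 and 31.9% ± 11.5.

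The members with the smallest differences were not called, and replicates scattered in them. At chr1:12854401-12854700, 308 bp downstream of the pseudogene AT1G35143, CHH was 54.8, 46.5 and 38.9% at 0 h and 42.6, 34.8 and 56.8% at 48 h SL, with overlapping groups and a difference of -3.03 points (adjusted p = 0.863). At chr2:15141001-15141300, 1353 bp downstream of MMZ3, which encodes a ubiquitin-conjugating enzyme variant, it was 53.0, 44.1 and 44.6% against 44.4, 21.6 and 59.8% (-4.51 points, adjusted p = 0.752). The others were chr1:6735901-6736200, chr1:16360801-16361100 and chr1:6659101-6659400, with -5.46, -5.65 and -6.00 points. In these 5 windows 63.7 to 94.1% of the 31-base words occur more than 1 time in the 5 chromosomes, against a mean of 38.1% over all members. Repeated words were not particular to them, since their share was 77.04% in chr5:4539601-4539900 and 54.8% in chr4:8564401-8564700 among the 5 largest falls, and 0.0 to 27.8% in the other 3. The part of shared sequence in these values was not tested.

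The highest CHH level in dry seeds was that of chr4:9320401-9320700, 587 bp upstream of AT4G16545, a gene of the HSP20 family of small heat shock proteins. The libraries of 0 h stood at 97.6, 95.5 and 97.0% from 89 to 200 calls, and those of 48 h SL at 56.7, 47.5 and 40.8% (-44.7 points, adjusted p = 1.29e-07). As shown with its sequence, these calls come from its first 57 bases. The second, chr4:9909001-9909300 in the pseudogene AT4G17820, went from 96.4% ± 1.42 to 54.3% ± 14.3 (adjusted p = 4.39e-07). The third, chr5:9189001-9189300, 125 bp upstream of CLC-D, a chloride channel gene, went from 93% ± 1.23 to 57.6% ± 3.9 (adjusted p = 1.56e-08), from 153 to 1162 calls in a library.

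A few members carried high CHH methylation in windows whose CG and CHG sites were almost unmethylated. The 3 lowest in CG are taken from members with at least 20 CG calls in every library. At chr5:5701201-5701500, 208 bp upstream of UGP2, which encodes a UDP-glucose pyrophosphorylase, CG was 0.0, 0.0 and 2.04% at 0 h and CHG was 2.08, 3.85 and 2.78%. CHH stood at 46.9, 48.2 and 43.6% in the same libraries and at 38.8, 16.4 and 18.3% at 48 h SL. The first library of 48 h SL was far above the other 2 there but below those of 0 h, and the difference of -18.7 points (adjusted p = 0.00729) was short of 20 points. The CG and CHG sites of this window all lie before base 151, where its CHH cytosines at 80% or more begin. In the other windows of this paragraph the positions of such sites were not compared. At chr1:27860701-27861000, 116 bp upstream of AT1G74088, CG was at 0.794% and CHG at 0.709% at 0 h, while CHH went from 56.9% ± 3.58 to 33.4% ± 4.95 (adjusted p = 9e-06). The third was chr1:12059701-12060000, mostly upstream of AT1G33250 and overlapping its start at 12059792. CG there was at 0.927% and CHG at 0.0% at 0 h, while CHH went from 51.4% ± 1.51 to 27.2% ± 3.77. Over the 54 members with CG under 20% at 0 h, CHH went from 58.0% ± 0.997 to 33.5% ± 3.05 and 57.8% was left, near the 55.8% left in the 4319 members with CG at 80% or more. CHG in these 54 was 36.5% ± 0.649 at 0 h.

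The largest called changes in CHG were falls. At chr4:2762701-2763000, 211 bp downstream of AT4G05470, a gene of the RNI-like superfamily, CHG was 75.5, 86.4 and 75.3% at 0 h and 38.1, 37.7 and 42.5% at 48 h SL (-38.7 points, adjusted p = 2.51e-12). The loss in CHH was of the same size, -37.6 points, while CG went from 89.1% to 87.6%. At chr5:25265101-25265400, 783 bp upstream of the non-coding RNA gene AT5G09095, CHG went from 93.6% ± 2.18 to 56.2% ± 3.81 (adjusted p = 2.51e-07). At chr1:27117901-27118200, it went from 70.8% ± 7.03 to 33.9% ± 3.95 (adjusted p = 9.51e-08). This window lies mostly upstream of AT1G72060, annotated as a serine-type endopeptidase inhibitor, and overlaps only its first bases, from 27118177. The only member called in CG, chr1:23966101-23966400, lies 35 bp downstream of the non-coding RNA gene AT1G08703 and 284 bp upstream of AT1G64540. Its CG level was 57.6, 61.0 and 55.4% at 0 h and 77.5, 86.3 and 73.8% at 48 h SL (20.8 points, adjusted p = 0.0484), while CHH went from 46.3% to 33.2%, and leaving out any 1 library of the 2 groups ended the CG call.

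The order of the CHH trinucleotides in the members was narrow in range. At 0 h CTA was highest (67.7% ± 0.531, SD, n = 3), followed by CAA (63.7% ± 0.521), then by CTC, CAC and CCA at 60.9, 60.4 and 59.7%, which lay within their spread of each other or close to it. CTT followed at 57.4%, and CAT, CCC and CCT were lowest at 55.5, 55.3 and 54.7%, also within their spread. The highest was thus 1.24 times the lowest. In the windows of 20 to under 50% the same trinucleotides ran from 44.9% in CTA and 43.0% in CAA down to 16.4% in CCC and 14.9% in CCT, a ratio of 3.02. In that band CTA and CAA, the trinucleotides favoured by CMT2, stood far above the other 7, of which CTC was the highest at 25.7%.

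In the seedlings all 9 were lower in every library. CTA was at 40.3% ± 1.23 and CAA at 38.2% ± 0.984, with 59.5% and 59.9% of their 0 h level left, while CCC and CCT were at 28.4% and 28.3%, with 51.3% and 51.7% left. The order was nearly kept, and the ratio of highest to lowest widened to 1.42. At single cytosines with at least 10 calls at 0 h, 36.0% of the CTA and 16.9% of the CAT cytosines were at 80% or more. Over all 311100 such CHH cytosines, 24.3% were at 80% or more and 6.48% under 20% at 0 h. Of those also read at 48 h SL, 92.9% were lower there, 0.447% were at 80% or more and 19.0% were under 20%.

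In CHG, the loss was unequal among the 3 trinucleotides. CCG went from 65.9% ± 0.537 to 48.8% ± 1.93 (74.1% left), whereas CAG went from 71.3% ± 0.399 to 66.0% ± 1.37 (92.5% left) and CTG from 74.5% ± 0.348 to 67.2% ± 1.61 (90.3% left). In the windows of 20 to under 50%, CCG went from 43.0% ± 0.359 to 39.8% ± 2.02 and kept 92.5%, as did CAG with 93.7% and CTG with 91.5%. At single CCG cytosines in members, 31.8% were at 80% or more at 0 h and 5.05% at 48 h SL, against 53.8% and 35.9% for CTG. In CG, the 4 trinucleotides kept 98.1 to 100.6%.

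**Figure D3:**
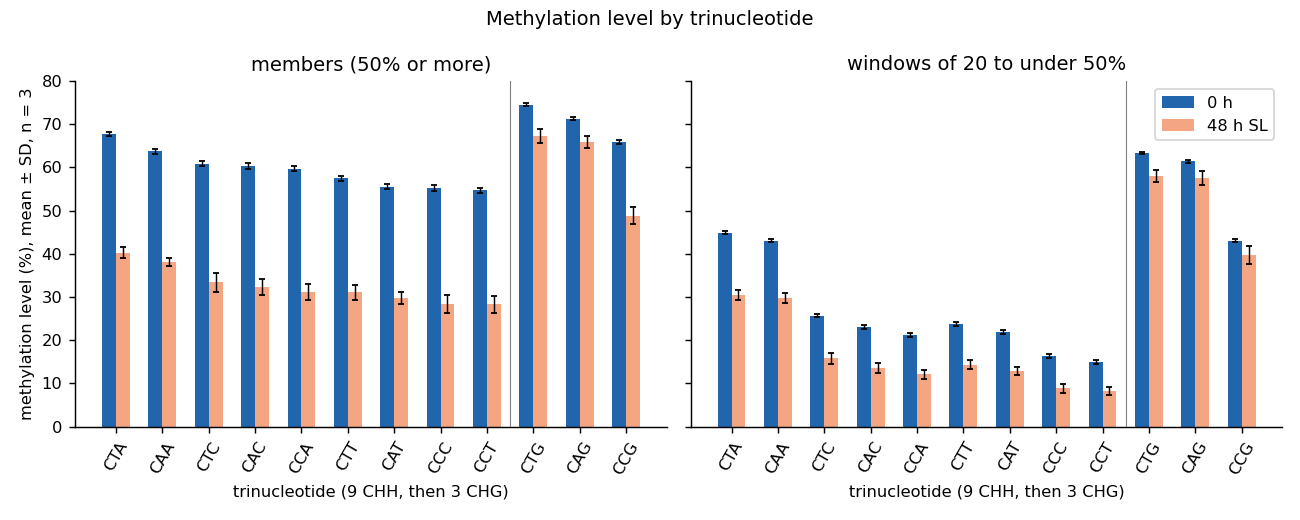
Methylation level (y axis, %, mean ± SD over 3 libraries) of the 9 CHH and 3 CHG trinucleotides (x axis) at 0 h and 48 h SL, for members (left) and windows of 20 to under 50% (right). In members the CHH bars at 0 h run only from 67.7% to 54.7%, and the CCG bar falls from 65.9% to 48.8%.

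Both strands were methylated alike when summed over the members, with 60.6% ± 0.548 on the plus and 59.99% ± 0.624 on the minus strand at 0 h, and 33.9% ± 1.59 and 33.4% ± 1.49 at 48 h SL (SD, n = 3). Single windows were less even. Their strands were compared over the whole window, and the positions of the cytosines on them were not matched. Of the 5535 members with at least 20 CHH calls on each strand in every 0 h library, 217 (3.92%) had strands that differed by at least 20 points with libraries that did not overlap, against 0.314% of all 382278 windows so read and 2.00% of the windows of 20 to under 50%. The plus strand was higher in 129 and the minus strand in 88. For 48 h SL 200 of the 217 had enough calls, of which 174 kept the sign of the difference and 19 still differed by the same rule.

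The largest difference was at chr1:7722301-7722600, 181 bp downstream of the pseudogene AT1G21945, whose plus strand carries all the capitals in the sequence shown above. The plus strand stood at 77.0, 81.0 and 79.7% at 0 h, from 158 to 335 calls. The minus strand stood at 6.45, 26.7 and 27.7%, from 45 to 65 calls. At 48 h SL the plus strand stood at 45.9, 30.5 and 30.9% and the minus strand at 6.98, 36.4 and 8.97%, so that the strands overlapped. CG was at 0.0% in every library, from 6 to 32 calls at its 1 CG site, and CHG at 11.4% at 0 h. That CG site lies past base 226, where the last CHH cytosine at 80% or more lies. The second was chr1:5391301-5391600 in AT1G15670, a gene of the kelch repeat superfamily, with 83.9, 81.6 and 86.4% on the plus and 27.4, 36.4 and 39.3% on the minus strand at 0 h. At 48 h SL its plus strand stood at 75.6% in replicate 1 but at 32.5 and 34.9% in the other 2. In the third, chr1:13108801-13109100 in ARF14, an auxin response factor gene, the minus strand was higher, with 71.7, 70.1 and 65.6% against 9.34, 20.3 and 34.3%.

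Members were found along all 5 chromosomes, with another course than windows of lower level. They made up 1.43 to 1.71% of the windows of the 5 chromosomes, and each of the 121 bins of 1 Mb held at least 5, with a median of 41 and a maximum of 136 in the bin of chromosome 3 that starts at 11000001. Distance was measured from the 500-kb bin with the fewest protein-coding genes of each chromosome, which marks the gene-poor region around the centromere. Members were 1.08% of the windows within 1 Mb of it, 2.61% at 1 to 2 Mb, 3.35% at 2 to 3 Mb, 2.25% at 3 to 5 Mb, 1.28% at 5 to 10 Mb and 0.765% beyond 10 Mb. Windows of 20 to under 50% fell steadily over the same steps, from 44.5% to 1.52%. Of all windows at 20% or more, members were therefore 2.38% next to the gene-poorest bin and 33.5% beyond 10 Mb.

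The CHH level of the members rose slightly with distance, from 57.8% ± 0.480 within 1 Mb to 63.2% ± 0.481 beyond 10 Mb at 0 h (SD, n = 3). The share left at 48 h SL was nearly the same in every step, between 55.1% and 56.4%. CHG at 0 h rose from 69.3% to 73.8% and CG lay between 83.9% and 86.8%.

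**Figure D4:**
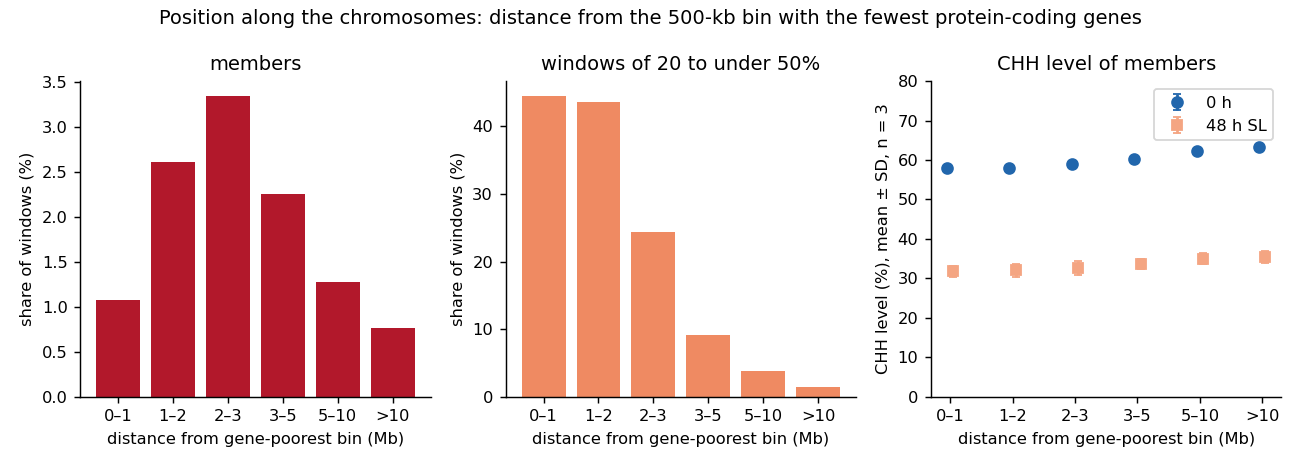
Members (left) and windows of 20 to under 50% (middle) as a percentage of the windows in each step of distance from the 500-kb bin with the fewest protein-coding genes (x axis, Mb), and CHH level of the members in each step (right, %, mean ± SD over 3 libraries) at 0 h and 48 h SL. The share of members peaks at 3.35% between 2 and 3 Mb, whereas the windows of 20 to under 50% are most frequent next to the bin.

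Most members lay outside annotated genes. Of the 6009, 82.4% overlapped no gene of the RefSeq annotation, against 52.5% of the windows of 20 to under 50% and 28.8% of all windows, and 8.75% overlapped a protein-coding gene. Pseudogenes were overlapped by 7.29% of the members but by 38.0% of the windows of 20 to under 50%. The 1 kb upstream of the nearest start of a protein-coding gene held 28.7% of the members, 10.9% of that band and 18.6% of all windows. Transposable elements are not marked as a class of their own in the annotation used and were not analysed here. Any that are listed among its pseudogenes were not told apart from other pseudogenes.

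Members formed 4093 runs of adjacent windows, and 2915 of them (48.5%) stood alone. Windows next to a member had a median of 39.1% or 39.7% at 48 h S on the 2 sides. At 0 h the mean CHH level went from 60.3% in the member to 36.3% and 36.5% in the adjacent windows, 23.9% and 24.1% in the next ones and 9.57% and 9.62% at 3000 bp. CG went from 84.9% to 33.8% and 32.3% over the same distance. Around members with no adjacent member, the first windows were at 25.3% and 25.4% CHH and at 59.96% and 59.5% CG. In seedlings the first windows around all members stood at 20.5% and 20.6% CHH.

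**Figure D5:**
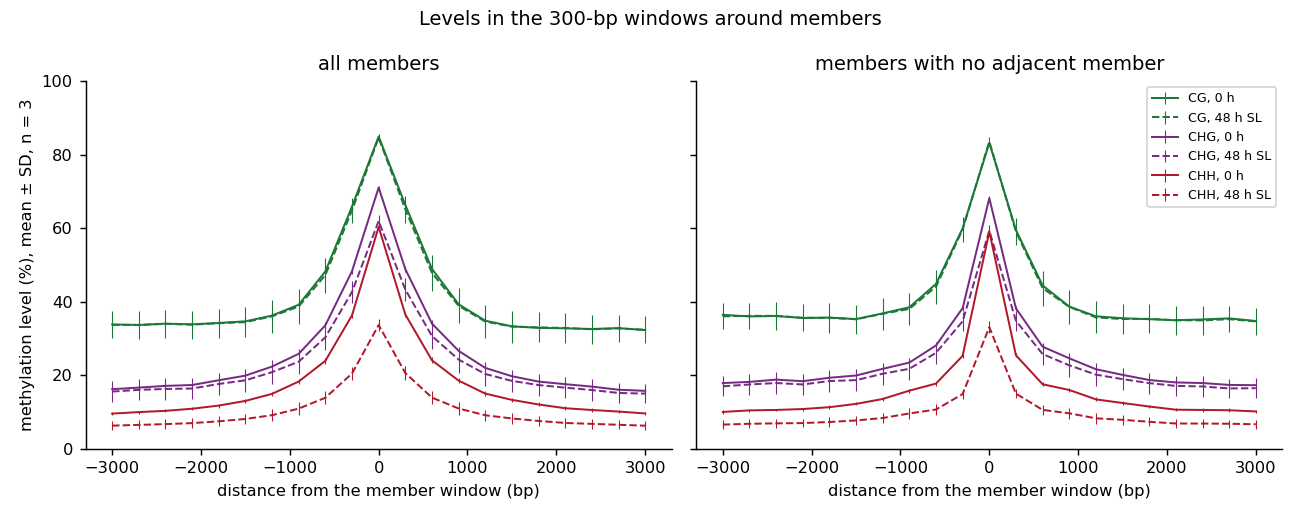
Methylation level (y axis, %, mean ± SD over 3 libraries) in the 10 windows on either side of the members (x axis, distance in bp) in CG, CHG and CHH at 0 h (solid) and 48 h SL (dashed), for all members (left) and for those with no adjacent member (right). Around all members CHH goes from 60.3% to 9.57% and 9.62% at 3000 bp at 0 h, and CG goes from 84.9% to 33.8% and 32.3%.

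The longest runs were of 17 windows (5100 bp). One, chr1:4406101-4411200, overlaps the pseudogene AT1G12935 and lies 432 bp upstream of the protein-coding gene AT1G12930. Its CHH level was 61.7% ± 1.63 at 0 h. It was 52.3% ± 2.65 at 24 h SL, then 37.6% ± 3.06 in seedlings, and 8 of its 13 tested windows were called lower. The other, chr5:22911001-22916100, overlaps the pseudogene AT5G56605 and lies 291 bp upstream of PRF3, which encodes a profilin. It went from 62.5% ± 1.99 to 36.4% ± 0.866, with 13 of 15 tested windows called. The third, chr2:909601-914400, has 16 windows, overlaps the pseudogene AT2G03080 and lies 329 bp downstream of MED8, which encodes a Mediator subunit. It went from 68.0% ± 0.992 to 36.9% ± 4.87, with 11 of 12 called. The 3 runs were thinly covered, with a mean of 2.91, 3.82 and 3.11 calls per CHH cytosine per library, in that order. Over all members this value was 2.34 to 12.5 in the single libraries. Windows short of the minimum of the test were not tested. CG in the 3 runs was 85.3 to 89.1% at 0 h and 86.6 to 89.5% at 48 h SL.

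The members were rich in A and T. Their median GC content was 28%, against 35.3% in the windows of 20 to under 50% and 36.3% in all windows. They held a median of 5 CG sites, and 228 of them (3.79%) held none. Repeated sequence was frequent, since on average 38.1% of the 31-base words of a member occurred again in the 5 chromosomes, against 29.4% in the windows of 20 to under 50% and 7.11% in all windows. Only 560 members (9.32%) had no repeated word.

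The share of CHH methylation left differed little by these features, which is a description and was not tested. At 48 h SL it was 56.8% in members without a CG site and 55.7% in those with 10 or more. It was 55.5% in members without a repeated word and 56.3% in those with at least 50% of words repeated. It was 55.99% in single windows and 56.1% in runs of 5 or more. By GC content it ran from 54.7% in the class of lowest GC (of 4 classes) to 57.8% in that of highest GC, while the SD among the 48 h SL libraries was 0.776 and 2.34 points of level. CHG differed more with GC content, with 83.01% left in the class of lowest GC (71.4% ± 0.232 to 59.3% ± 1.25) and 90.4% in the highest (72.2% ± 0.556 to 65.3% ± 1.92). Replicate 1 of 48 h SL, which covered members most densely, also had the highest level in each context, and its part in these differences was not tested.

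The authors' deposited regions, which hold coordinates without level or direction, were called on the same libraries and are not independent of these values. Whether they were listed before or after the 20% size filter of the methods is not stated with the lists. Of all windows, 31982 overlapped a region of the CG list and 36135 one of the CHG list. The paper reports far fewer regions in CG and CHG after the filter. The CG and CHG lists thus appear to precede the filter, and overlaps with them are not overlaps with the regions reported in the paper. For the CHH list this stayed open, so each list may hold regions with small differences. A CHH region was overlapped by 90.9% of the members, 41.96% of the windows of 20 to under 50% and 7.8% of all windows. For CHG these shares were 39.3%, 43.8% and 9.29%, and for CG 12.2%, 18.6% and 8.22%.

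A list of 13 genes known for methylation near their promoters or for imprinting was looked up. 6 of them had a member in the gene or within 2 kb, and 7 had none, while 3994 of all 27444 protein-coding genes (14.55%) had one. The list was chosen with earlier results known, so its share is a description. SDC, an F-box gene silenced through non-CG methylation of repeats in its promoter, had 1 at 62 bp upstream (chr2:7681801-7682100), with CHH at 54.5% ± 5.97 in dry seeds and 29.2% ± 2.66 in seedlings (SD, n = 3, adjusted p = 4.78e-06). MYB74, which encodes a MYB transcription factor, had 2, the nearer at 272 bp upstream (chr4:2617801-2618100) with 55.7% ± 6.05 and 32.0% ± 3.48 (adjusted p = 1.77e-05). MEA, an imprinted Polycomb gene of the endosperm, had 2, the nearer at 399 bp downstream (chr1:549601-549900) with 63.6% ± 6.04 and 32.9% ± 2.74 (adjusted p = 2.43e-07).

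HDG9, an imprinted homeodomain gene, had 5 members within 2 kb, the nearest at 139 bp downstream (chr5:5702701-5703000), with 74.8% ± 3.42 in dry seeds and 46.2% ± 5.32 in seedlings (adjusted p = 6.46e-07). The window upstream of UGP2 described above is in the same region. EPF2, which encodes a peptide that limits stomatal number, had 1 at 1268 bp upstream (chr1:12471301-12471600), with 55.1% ± 0.625 and 35.3% ± 3.61 (adjusted p = 1.26e-05). SPCH, a transcription factor gene that starts the stomatal lineage, had 1 at 1819 bp downstream (chr5:21584101-21584400), with 49.1% ± 1.58 and 28.8% ± 6.53. Its difference of -19.5 points (adjusted p = 0.00145) was short of 20 points.

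7 genes had no member nearby, and their highest window within 2 kb gives the level at 48 h S. It was 43.9% in the imprinted homeodomain gene FWA, 40.8% near the imprinted MADS-box gene PHE1, 39.4% near QQS and 39.1% near the allantoinase gene ALN. It was 33.2% near the homeodomain gene HDG3, 26.1% near the Polycomb gene FIS2 and 7.03% at ROS1, which encodes a DNA demethylase. The FWA window (chr4:13038301-13038600) stood at 50.1% ± 4.68 at 0 h and 22.8% ± 2.37 at 48 h SL (adjusted p = 4.35e-06). The ROS1 window (chr2:15314701-15315000) stood at 10.1% ± 1.59 and 3.12% ± 1.07.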

How the data were processed

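MethylC-seq measures methylation with bisulfite, which turns unmethylated but not methylated cytosines into bases read as thymine. It was run on 15 libraries (5 time points, 3 each). The authors added 0.5% lambda DNA, trimmed single-end reads with Trim Galore 0.4.2, aligned them to TAIR10 with Bismark 0.16.3, removed duplicates and deposited the counts of methylated and unmethylated calls at each cytosine of chromosomes 1 to 5 for each library, neither normalized nor pooled. All 42859750 cytosines matched the RefSeq TAIR10.1 sequence, which gave gene positions and sequences. Removal of reads that start at the same base limits the calls at 1 cytosine, and default alignment can leave repeated sequence thinly covered. The lambda reads were not used here, so conversion was not measured.

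Calls were summed in windows of 300 bp. A window's level is methylated calls over all calls. Each context was fitted over all windows with at least 3 covered cytosines and 20 calls in each of the 12 libraries other than those of 48 h S, with a quasi-binomial model, dispersions moderated by squeezeVar (limma 3.58.1, R 4.3.3), an F test and Benjamini-Hochberg adjustment over all windows of the context. The prior of the dispersion was estimated from windows at 5 to 95%, a departure made after the simulated data showed windows without variance to distort it. The 48 h S libraries were left out because they chose the windows. Levels are mean ± SD of 3 libraries. Replicates are biological replicates by the methods, but all seeds came from 1 batch of plants. Named windows are the 5 largest called CHH falls, the 5 smallest, the 3 highest in CHH and 3 lowest in CG at 0 h (with at least 20 CG calls in every library), the 3 largest strand differences, the 3 largest called CHG changes, those called in CG (added after the values were seen) and 3 on either side of the limit. The members, bands and lists were chosen with earlier results of these data known. The script was tested on simulated data with the same dispersion in every context. The prior dispersion fitted to the real data was 3.23 in CHH, 1.39 in CHG and 1.37 in CG, so the simulated spread was not matched to them. Python 3.11.15 was used. Other call minimums, thresholds, fits and left-out libraries were tried, as were limma on transformed levels and a replicate block. The authors also deposited coordinates of differentially methylated regions from HOME, used for overlap alone.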

Additional observations from a re-analysis of the deposited data

How the results depend on the processing

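The number of members was 4190 with a limit of 55%, 8365 with 45%, 6034 with shifted windows and 6315 from the mean of single cytosines, all within 1.5 times 6009, and 5973 to 6127 without each 48 h S library. The CHH calls between 0 h and 48 h SL ranged from 4563 to 5578 under the alternatives and from 4655 to 4904 without 1 library. Of the 4840, limma called 4832 again. Without a minimum difference, 3628 members were called in CHH between 24 h SL and 48 h SL, 28 between 6 h SL and 24 h SL, 257 in CHG and 6 in CG between 0 h and 48 h SL. Of all tested windows, 2.54%, 0.0091% and 0.201% were then called lower in these CHH and CHG comparisons, in that order. In CG 0.103% were called lower and 0.0126% higher. Under the settings that follow, only members were counted. With limma on arcsine square root levels the counts were 83 (0 h to 24 h SL), 1 (0 h to 6 h SL) and 154 (6 h SL to 24 h SL) in CHH, 41 (0 h to 48 h SL) and 1 (0 h to 24 h SL) in CHG, and 0 in CG. With all 15 libraries fitted, 5 members were called from 0 h to 24 h SL and 42 from 6 h SL to 24 h SL. With a minimum of 10 calls 196 were called in CHG and with 40 calls 42, of 4009 and 908 tested, and with 40 calls 0 in CG. With the replicate number as a block, 0 members were called between 6 h SL and 24 h SL instead of 16, and no other count moved by over 1.5 times. Same-numbered libraries did not deviate together (18 correlations over members between -0.0366 and 0.0364), so the numbers were not shown to pair the libraries. Leaving out 1 library gave 0 to 2 calls from 0 h to 24 h SL, 0 to 7 from 6 h SL to 24 h SL, and 0 in CG. The cause of these shifts was not tested, beyond fewer or more windows tested and the loss of a library.

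The mean changes moved by less than 1 SD under every alternative, with background removed to -27.0 points in CHH, but CG changed sign between windows counted equally (0.111 points) or without replicate 3 of 48 h SL (0.0708) and the value of -0.313. Of the 355 values of named windows, 329 kept their call. 3 small differences turned positive: chr1:12854401-12854700 (1.995 points) without replicate 1 of 0 h, in a range from -6.84, chr2:15141001-15141300 (0.605) without replicate 2 of 48 h SL, from -9.51, and chr1:6735901-6736200 (0.963) without replicate 1 of 48 h SL, from -8.25. Depth limits single windows, chiefly through replicate 1 of 24 h SL, and 288 members could not be tested in CHH.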
